A study of Mus musculus with 12 samples.

Results

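Baseline gene expression was described in the lungs of wild-type C57BL/6J mice that breathed room air. Members were chosen by the treatment label, and 6 of the 12 arrays of the series met it. There were 3 male and 3 female samples from mice aged 8 to 10 weeks, and all 6 were labelled room air. Each sample was lung total RNA pooled from 4 mice, so that 24 mice, 12 of each sex, stood behind the 6 arrays. RNA was hybridised to Affymetrix mouse gene arrays, which read whole transcripts with many short probes, and levels are log2 values. No array of exposed mice was used and the sexes were not contrasted. A value from a pool is an average over 4 mice, so the spread between arrays is the spread between pools and understates that between mice. No RNA was measured more than once, so technical error cannot be told apart from differences between pools, and the small number of arrays limits the precision.

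The alveoli are lined by flat type 1 cells, across which gas passes, and by cuboidal type 2 cells, which secrete surfactant, with a dense capillary bed beneath them. The airways carry secretory club cells and ciliated cells, with mucous cells mostly in the larger airways. The lung lies against the heart, oesophagus, thymus and fat of the mediastinum, and in mice cardiac muscle runs from the left atrium along the pulmonary veins into the lung itself. The oesophagus of the mouse is lined by a keratinised squamous epithelium, and its wall holds skeletal muscle. In bulk tissue, fewer cells of a type and less RNA per cell cannot be told apart.

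The arrays were alike. Array medians lay between 8.17 and 8.20 and the correlations over the 15 pairs of arrays between 0.975 and 0.995. The sex labels fitted their genes: Xist, the RNA that silences an X chromosome, lay between 6.63 and 7.77 in the male pools and between 12.52 and 12.85 in the female pools. Eif2s3y, a Y-linked translation factor gene, lay between 9.38 and 10.09 in the male pools and between 4.95 and 5.93 in the female pools. The Y-linked genes Uty and Kdm5d followed the labels too. Over 19938 genes the mean log2 level ran from 3.55 to 14.30 with a median of 8.54. The median SD between the 6 pools was 0.116, and the median difference between a gene's highest and lowest pool was 0.31 on the log2 scale, or 1.24-fold. An SD of at least 0.5 was reached by 228 genes (1.14%) and an SD of at least 1 by 61. Of the 12146 clusters with no symbol in the annotation used, 871 also reached 0.5.

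Promoters are shown here for 5 genes that mark the tissues discussed below, namely Sprr3 of squamous epithelium, Acta1 of skeletal muscle, Nppa and Myl7 of atrial muscle and Bpifa1 of airway secretory cells. Each line is the 100 bases before the annotated start in RefSeq, build GRCm38.p6, read 5′ to 3′ on the strand of the gene. Capitals mark TATAAA, the letters of the TATA box, and the CArG box, the sequence bound by serum response factor in many muscle genes.
Sprr3 (chr3:92458721-92458820, minus strand): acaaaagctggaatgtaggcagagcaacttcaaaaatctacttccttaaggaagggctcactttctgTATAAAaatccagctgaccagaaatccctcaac
Acta1 (chr8:123894776-123894875, minus strand): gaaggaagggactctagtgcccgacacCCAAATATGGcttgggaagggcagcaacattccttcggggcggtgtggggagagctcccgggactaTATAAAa
Nppa (chr4:148000622-148000721, plus strand): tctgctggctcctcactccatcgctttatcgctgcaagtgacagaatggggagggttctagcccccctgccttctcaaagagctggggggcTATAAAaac
Myl7 (chr11:5898783-5898882, minus strand): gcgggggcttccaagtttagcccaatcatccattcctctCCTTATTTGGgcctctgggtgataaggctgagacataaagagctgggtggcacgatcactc
Bpifa1 (chr2:154142780-154142879, plus strand): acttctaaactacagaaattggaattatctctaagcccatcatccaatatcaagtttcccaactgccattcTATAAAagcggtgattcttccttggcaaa

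TATAAA began 33 bases before the start of Sprr3, 29 before that of Bpifa1, 9 before that of Nppa and 7 before that of Acta1, with the start taken as annotated. The marked letters of the different motifs do not overlap. Over a window of 300 bases, from 250 before to 50 after the start and on both strands, 3827 of 27025 promoters (14.16%) held TATAAA. It was found in 6 of 15 squamous promoters, 7 of 17 of skeletal muscle and 4 of 10 of club and mucous cells. Neutrophils had 4 of 11, type 2 cells 4 of 12, heart muscle 3 of 18 and atrial muscle 1 of 6. White fat had 0 of 7, endothelium 0 of 9 and type 1 cells 0 of 12. The CArG box was found in 425 promoters (1.57%), among them 2 of 17 of skeletal muscle, 2 of 18 of heart muscle, 1 of 6 of atrial muscle, 2 of 12 of type 1 cells and 1 of 10 of club and mucous cells. A match of letters is a description and shows no binding.

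The brightest genes of room air lung were those of airway and alveolar secretion beside housekeeping RNAs. An array value depends on the probes as well as on the RNA, so a rank orders array values and not transcript numbers. The 30 highest means ran from 14.30 down to 13.37. Scgb1a1, the secretoglobin of club cells, had a mean of 14.03 (SD 0.06, n = 6). Sftpc, the surfactant protein C of type 2 cells, also had a mean of 14.03 (SD 0.05). Both lay beside Actb, the cytoskeletal actin, at 14.03. Cyp2f2, a club cell cytochrome P450, read 13.95, Cbr2, a lung carbonyl reductase, 13.83, and Lyz2, the lysozyme of macrophages and type 2 cells, 13.72. Sftpa1 at 13.63 and Sftpb at 13.52 are further surfactant proteins, and Inmt at 13.62 is a methyltransferase of lung fibroblasts. Calcrl, a receptor subunit of endothelium, read 13.43, Cxcl15, a chemokine of lung epithelium, 13.39, and Slc34a2, the phosphate transporter of type 2 cells, 13.39. Non-coding RNAs such as Rn7sk at 14.26 and translation genes such as Eef1a1 at 13.75 made up much of the rest. The first rank went to Baiap2l1 with 14.30, but its name is uncertain, since the annotation gave this symbol to 3 clusters with means of 14.30, 12.50 and 10.61. In all, 8 of the 30 genes had more than 1 cluster.

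Lists of the alveolar and vascular cells of the lung lay high on the arrays and those of distant organs low. Of 260 genes in 25 lists of lung cell types, 47 (18.1%) were among the 500 brightest genes, which had a mean of at least 11.77, against 2.51% of all genes. Of 139 genes of 12 neighbouring tissues, 3 were among these 500, and of 49 genes of 7 distant organs 0 were. The 7 medians of liver, brain, retina, testis, pancreas, kidney and gut lay between 6.97 and 7.62, and 9 in 10 of their genes had a mean below 8.16. That value is taken below as the level at which an array value cannot be told from that of most genes of distant organs. Some lung cell types lay as low: the medians were 6.81 for mast cells and basophils and 7.33 for neuroendocrine cells. Natural killer cells, with a median of 8.16, lay above the medians of the distant organs, with 5 of 10 genes below the cut. The dot plot of levels shows this order, with type 2 cells and endothelium at the top and mast cells, distant organs and several neighbouring tissues at the bottom.

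**Figure D1:**
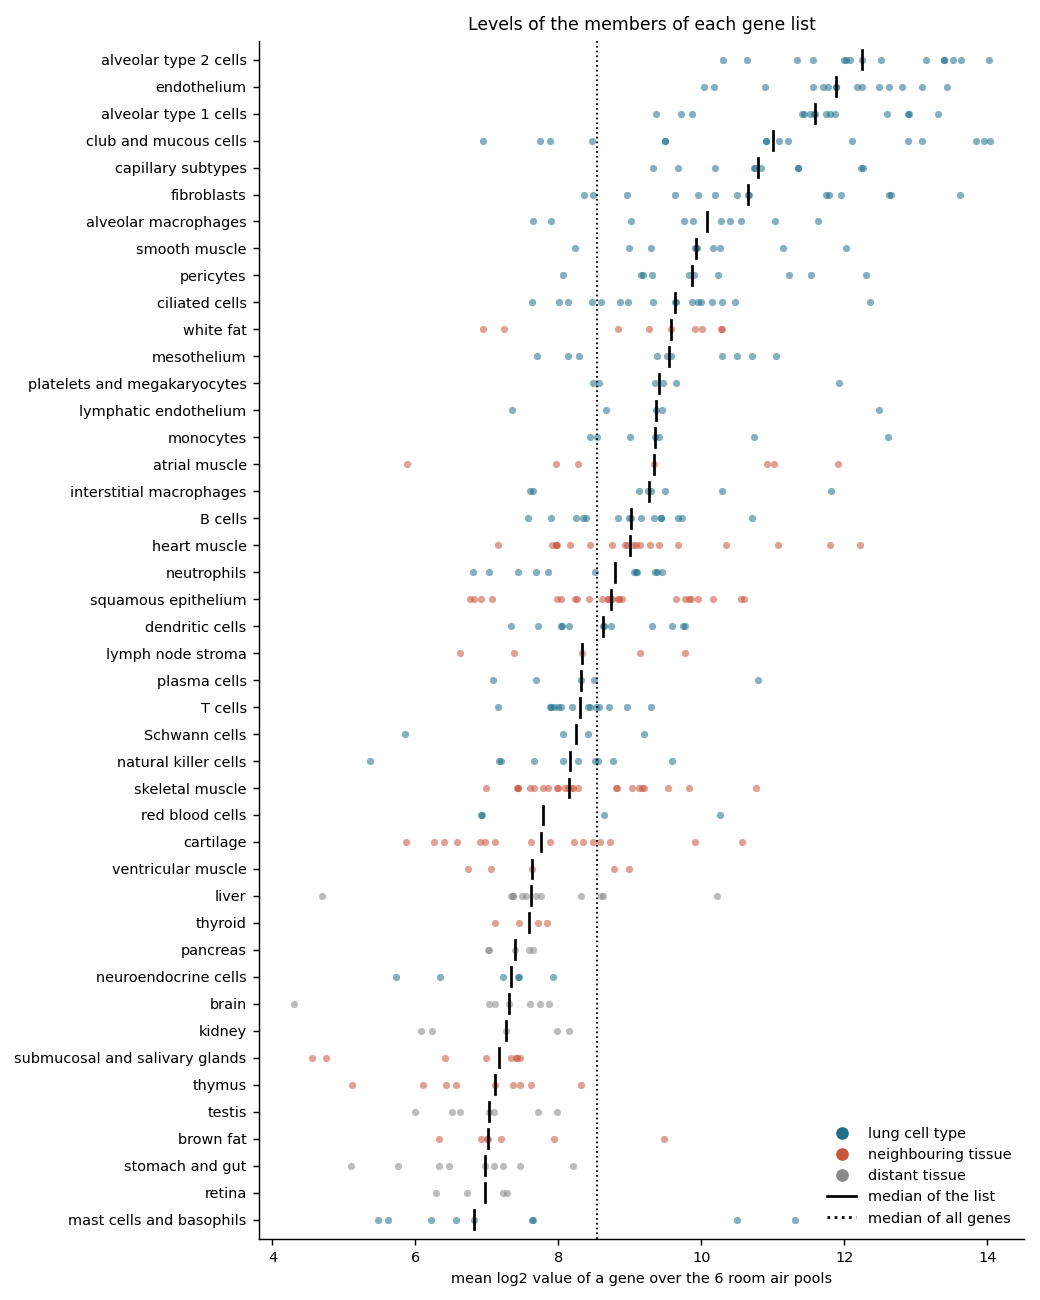
Each dot is a gene of a list, placed by its mean log2 level over the 6 room air pools (x axis), with lists sorted on the y axis by their median (black bar) and the median of all genes, 8.54, dotted. Type 2 cells (median 12.24), endothelium (11.88) and type 1 cells (11.59) lie highest, and the distant organs lie between 6.97 and 7.62.

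Alveolar epithelium was bright and steady across the pools. The list of type 2 cells had 11 of its 15 genes among the 500 brightest, and its mean log2 level ran from 12.31 to 12.47, a range of 0.15. Sftpc read 13.97, 14.10 and 14.04 in male pools 1 to 3 and 14.01, 13.98 and 14.06 in female pools 1 to 3. Lamp3, a membrane protein of surfactant-storing lamellar bodies, read 12.39, 12.69, 12.47, 12.44, 12.50 and 12.61 in the same order, the widest range among the type 2 genes named here. Type 1 cells had 6 of 15 genes among the 500 brightest and a list mean between 11.47 and 11.67, a range of 0.20, which was 0.13 without female pool 1. Emp2, a caveolar membrane protein and the brightest of them, had a mean of 13.31, and its pools ran from 13.22 to 13.38. Ager, the receptor for advanced glycation end products and a defining gene of type 1 cells, had a mean of 12.91 (79th of all genes). Aqp5, the water channel of these cells, read between 11.62 and 11.66 in 5 pools and 11.37 in female pool 1. In 12 of the 15 type 1 genes female pool 1 was the lowest, while 15.2% of all genes had their lowest value there.

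Endothelium, the lining of the vessels, was of like brightness. Its list mean ran from 11.81 to 12.04, a range of 0.23, with 10 of 15 genes among the 500 brightest. Calcrl ran from 13.33 to 13.60 and Cdh5, the cadherin of endothelial junctions, from 13.02 to 13.16. Male pool 2 was the highest in 10 of the 15 genes, against 24.9% of all genes. Yet bright genes as a whole lay higher in that pool, by a median of 0.06. With this offset by level removed the endothelial range was 0.14, and those of type 1 and type 2 cells were 0.11 and 0.06. Capillary genes moved little either. Car4, the carbonic anhydrase of the large alveolar capillary cell, had pools between 12.16 and 12.36, and Aplnr, the apelin receptor of the general capillary cell, between 10.61 and 10.92. Lyve1, a hyaluronan receptor of lymphatic vessels, ran from 12.26 to 12.65.

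Airway secretory genes split into a steady and a variable set. Scgb1a1 read 13.98, 14.12 and 14.04 in male pools 1 to 3 and 14.02, 13.95 and 14.06 in female pools 1 to 3, while Cyp2f2 and Cbr2 had an SD of 0.04 each. These are genes of club cells down to the small bronchioles. Bpifa1, a secreted antimicrobial protein of the upper and large airways, read 13.44, 11.50, 13.16, 13.20, 12.72 and 13.31 in the same order. Male pool 2 was the lowest, and the highest pool stood 3.83-fold above it. Reg3g, an antibacterial lectin, read 11.53, 9.47, 11.28, 11.55, 11.08 and 11.60, a 4.37-fold difference. Muc5b, the main gel-forming mucin of mouse airways, read 11.00, 9.90, 10.88, 11.21, 11.13 and 11.31, a 2.66-fold difference. The same pool was the lowest for both. Scgb3a1, a secretoglobin of large airways, read 12.32 in male pool 2 and between 13.20 and 13.27 in the other 5. Bpifb1, a relative of Bpifa1 that was chosen after its values were seen, read 9.74 there and between 11.25 and 11.86 in the others. Tff2, a trefoil peptide of mucous cells, read 8.53 there and between 9.52 and 9.97 in the others.

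The list of club and mucous cells had a mean of 10.97, 10.36 and 10.84 in male pools 1 to 3 and of 11.08, 10.96 and 11.05 in female pools 1 to 3. Its range was 0.73 on the log2 scale, or 1.66-fold, and 0.25 without male pool 2. Male pool 2 was the lowest in 10 of 16 genes, while 24.1% of all genes had their lowest value there. Male pool 2 also had the lowest list means of heart muscle (8.41), skeletal muscle (7.50), smooth muscle (9.80) and white fat (8.51), among other lists. Whether these go together was not tested. Clca1, a secreted protein of goblet cells, followed another order: it read 9.18, 8.50, 7.97, 11.01, 9.81 and 10.51, highest in female pool 1 and lowest in male pool 3. Muc5ac, the mucin of goblet cells, was dim, between 7.50 and 8.11. Ciliated cell genes did not share the low value of male pool 2 to this extent. Their list mean ran from 9.34 in that pool to 9.50, a range of 0.17 that fell to 0.11 without it. Foxj1, the master regulator of motile cilia, ran from 9.12 to 9.43 and Tppp3, a tubulin-binding protein, from 12.27 to 12.45.

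Stromal lists were steady, with smooth muscle the most variable. Fibroblast genes had a list mean between 10.71 and 10.89, a range of 0.18 that was 0.11 without female pool 3. Dcn, the collagen-binding proteoglycan decorin, ran from 12.51 to 12.80 and Col1a1, a chain of collagen I, from 10.56 to 10.74. Lum, the proteoglycan lumican, spread further: it read 8.24, 8.09, 7.83, 8.95, 8.02 and 9.04 over male pools 1 to 3 and female pools 1 to 3. It was the one fibroblast gene of 15 with an SD of at least 0.5. The smooth muscle list had a mean of 10.25 in female pool 3 and between 9.80 and 10.03 in the other 5, a range of 0.45, or 0.23 without female pool 3. Female pool 3 was the highest in 7 of its 10 genes, against 12.0% of all genes. Cnn1, the smooth muscle calponin, read 10.22, 9.88, 10.27, 9.97, 10.36 and 10.87, and Acta2, smooth muscle actin, 12.12, 11.83, 11.94, 11.89, 12.00 and 12.36. Des, the intermediate filament of all muscle types, went with striated muscle instead, at 11.30, 10.77, 10.83, 11.69, 10.75 and 11.48. The mesothelium list, of the covering of the lung, ranged by 0.28, with its highest mean of 9.68 in female pool 1 and a range of 0.15 without it.

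Among blood and immune cells, neutrophil genes varied most. The neutrophil list had a mean of 8.85, 8.19 and 8.53 in male pools 1 to 3 and of 8.72, 7.96 and 8.11 in female pools 1 to 3, a range of 0.88, or 1.84-fold. Male pool 1 was the highest in 8 of 12 genes, against 29.8% of all genes. S100a8, a calcium-binding protein abundant in neutrophils, read 9.88, 8.89, 9.37, 9.54, 8.31 and 8.48, a 2.96-fold difference. S100a9, its partner, read 10.15, 9.35, 9.78, 9.79, 8.80 and 8.81. Cxcr2, the chemokine receptor of neutrophils, read 9.66, 9.09, 9.56, 9.20, 8.30 and 8.57. In all 3 genes female pools 2 and 3 were the lowest. Csf3r, the receptor for the neutrophil growth factor, did the same, with 8.86 and 8.83 there and between 9.37 and 9.94 elsewhere. Il1b, an inflammatory cytokine, read 9.59, 8.98, 9.35, 9.01, 8.32 and 8.59. Ngp, a granule protein of immature neutrophils, departed from this order, with 7.94 in female pool 1, above all the others, the lowest of which was male pool 2 at 6.71. Ltf, lactoferrin of granules and of airway glands, was lowest in male pool 2 at 8.29 and highest in female pool 3 at 10.05.

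The other immune lists differed less between pools. B cell genes ranged by 0.37, with the lowest list mean of 8.79 in male pool 3, which was the lowest pool in 9 of 15 genes against 7.45% of all genes. Cd79b, a part of the B cell receptor, read 10.99, 10.81, 10.49, 10.58, 10.96 and 10.45. Natural killer genes ranged by 0.42, or 0.23 without male pool 3, and T cell genes by 0.25. Gzma, a granule protease of killer cells, was lowest at 8.43 in male pool 3 and highest at 9.15 in female pool 2. Alveolar macrophage genes ranged by 0.20. Chil3, a chitinase-like protein of these cells, ran from 10.76 to 11.26, and Plet1, a surface protein, from 11.59 to 11.68. Interstitial macrophage genes ranged by 0.31, or 0.13 without female pool 1, where the complement gene C1qb read 10.68 against 10.09 to 10.29 in the others. Platelet genes ranged by 0.33. Ppbp, a platelet chemokine, read 12.01, 12.21 and 12.12 in male pools 1 to 3 and 12.08 in female pool 1, and 11.64 and 11.53 in female pools 2 and 3. Haemoglobin genes had no cluster of their own symbol here and are not described.

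Many of the genes that varied most between pools were listed genes of tissues beside the lung. Of the 200 genes with the largest SD (at least 0.56), 57 came from the 139 genes of neighbouring tissues, a share of 41.0% of those genes against 1.00% of all genes. The lists were chosen with earlier results of these data known, so these shares are a description and not a test. Lung cell type lists gave 6 of their 260 genes (2.31%): Clca1, Reg3g, Bpifa1, S100a9, S100a8 and Ltf. Distant organs gave 1 of 49, Alb, and 130 of the 200 genes were in no list. The plot of level against spread shows that most squamous and skeletal muscle genes lay above an SD of 0.5, while the bright genes of type 2 cells and endothelium lay near the floor of the spread.

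**Figure D2:**
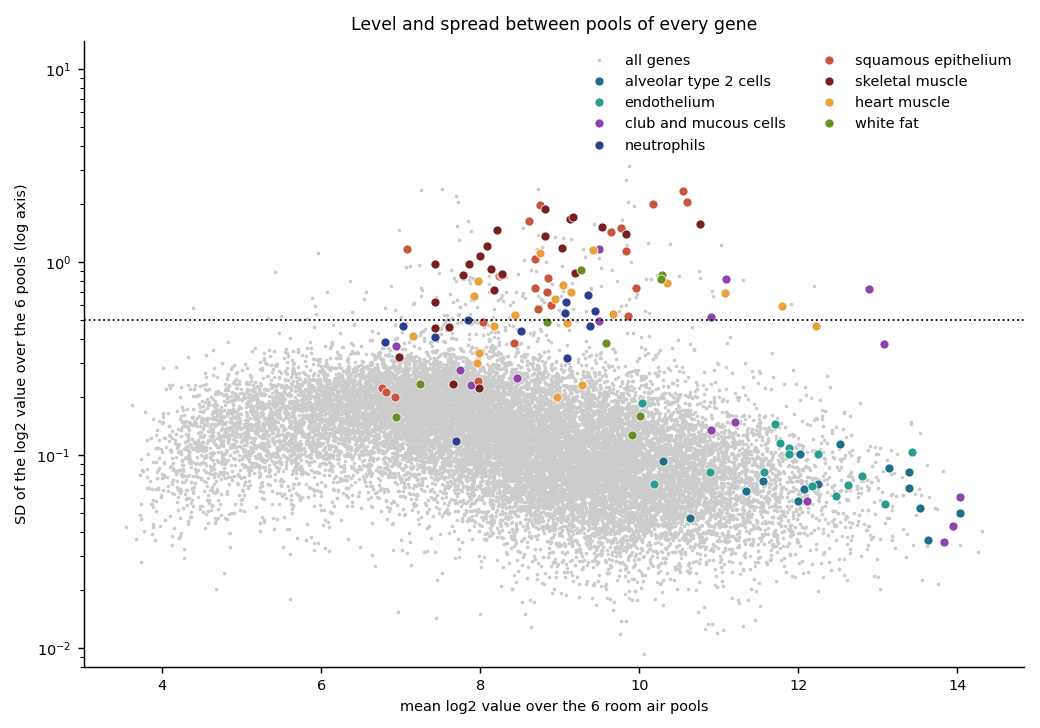
Each point is a gene, with its mean log2 level over the 6 room air pools on the x axis and the SD over the pools on a log y axis, and the genes of 8 lists in colour. The dotted line is an SD of 0.5, reached by 228 of 19938 genes; 19 of 25 squamous and 19 of 24 skeletal muscle genes lie at or above it, and 0 of 15 type 2 and 0 of 15 endothelial genes do.

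The variable genes fell into a small number of pool patterns. Of the 228 genes with an SD of at least 0.5, 183 (80.3%) were highest in female pool 1, where 8.15% of all genes were highest. Male pool 1 was the highest for 22, female pool 3 for 13, male pool 2 for 7, female pool 2 for 2 and male pool 3 for 1. In 133 of the 228 (58.3%) the 3 lowest pools were male pools 2 and 3 and female pool 2, against 3.49% of all genes. In 67 (29.4%) they were male pools 1 and 3 and female pool 2, against 9.65% of all genes. The first pattern held 18 of the 19 variable skeletal muscle genes, 9 of 12 of heart muscle and all 3 of white fat, and 4 of 19 of squamous epithelium. The second held 15 of the 19 squamous genes and 0 of muscle, heart or fat. Male pool 2 thus lay above male pool 3 and female pool 2 for most squamous genes and beside or below them for most muscle and fat genes. The first principal component of the 6 arrays held 49.6% of the variation between them and the second 31.7%.

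Squamous epithelium gave the widest gene-level differences. The list mean was 8.72, 8.77 and 7.67 in male pools 1 to 3 and 10.04, 7.86 and 9.48 in female pools 1 to 3, a range of 2.37 on the log2 scale, or 5.18-fold. Female pool 1 was the highest in 22 of 25 genes, against 8.15% of all genes. Of the 25 genes, 6 had a mean below 8.16, and the list mean was below it in male pool 3 and female pool 2. Fold differences of genes that were dim in those pools are limited by signal near background. Krt4, a keratin of the layers above the base of oesophageal epithelium, read 11.28, 11.52, 7.08, 12.82, 8.24 and 12.36, a 53.4-fold difference. Krt13, its partner keratin, read 11.08, 11.44, 7.70, 12.77, 8.50 and 12.09. Sprr3, a small proline-rich protein of the cornified envelope whose promoter is printed above, read 10.25, 10.61, 7.63, 12.51, 8.02 and 11.98, a 29.6-fold difference. In all 3 genes 4 pools were high, and male pool 3 and female pool 2 were low. Apart from Xist, the gene with the largest SD was Defb4, an antimicrobial defensin, at 10.55, 10.73, 6.19, 12.52, 6.95 and 12.05, an 80.4-fold difference. Serpinb12, a protease inhibitor of squamous cells, differed 51.6-fold, and Lor, loricrin of the cornified envelope, 32.1-fold.

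Of genes of the basal layer, Krt5 and Trp63 ranged by less than Krt4, Krt13 and Sprr3. Krt14 and Krt15, also on the list, are not described. Krt5, the basal keratin, read 8.45, 8.61, 7.63, 10.27, 7.69 and 9.50, and Trp63, the transcription factor of basal cells, only between 7.76 and 8.40. Both genes are also used by basal cells of the airways. Members that were dim in every pool were Krt6a, a keratin of stressed epithelium, with a mean of 6.91, Psca with 6.82 and Crnn with 6.76. Chromosome 3 held 36 variable genes among its 945 genes (3.81%), against 1.14% of all genes. Of these 36, 19 lay in the stretch of cornified envelope genes, in which 44 genes were measured.

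Skeletal muscle genes spread as widely as squamous genes but in another order of pools. The list mean was 8.94, 7.50 and 7.57 in male pools 1 to 3 and 9.89, 7.62 and 8.82 in female pools 1 to 3, a range of 2.39, or 5.24-fold. Female pool 1 was the highest in 22 of 24 genes, against 8.15% of all genes, and without that pool the range was 1.44. Of the 24 genes, 12 had a mean below 8.16, and the list mean was below it in male pools 2 and 3 and female pool 2. Fold differences of genes that were dim in those pools are thus limited by signal near background. Myh1, a fast myosin heavy chain, read 9.78, 7.62, 6.65, 11.32, 7.31 and 10.23, a 25.4-fold difference. Acta1, skeletal actin, whose promoter is printed above, read 11.97, 9.31, 9.39, 12.71, 9.38 and 11.84, a 10.5-fold difference. Myl1, a fast myosin light chain, differed 18.9-fold and Atp2a1, the calcium pump of fast fibres, 11.9-fold. For each of these 4 genes the 3 high pools were male pool 1 and female pools 1 and 3. Nebulin (Neb), which sets the length of thin filaments, differed 17.7-fold, and Ckm, the muscle creatine kinase, read 11.24, 9.15, 9.41, 11.98, 9.30 and 11.22. Myh2, a myosin of oxidative fast fibres, read 10.47 in female pool 1 and between 7.07 and 7.96 elsewhere. Tnni1, the slow troponin I, stayed between 7.35 and 7.90, and Myod1, the regulator of muscle identity, between 7.63 and 8.23, both at the level of distant organ genes. The slow fibre troponin Tnnt1 was likewise dim, with a mean of 6.98. The plot of list members by pool sets this order beside those of the other tissues.

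**Figure D3:**
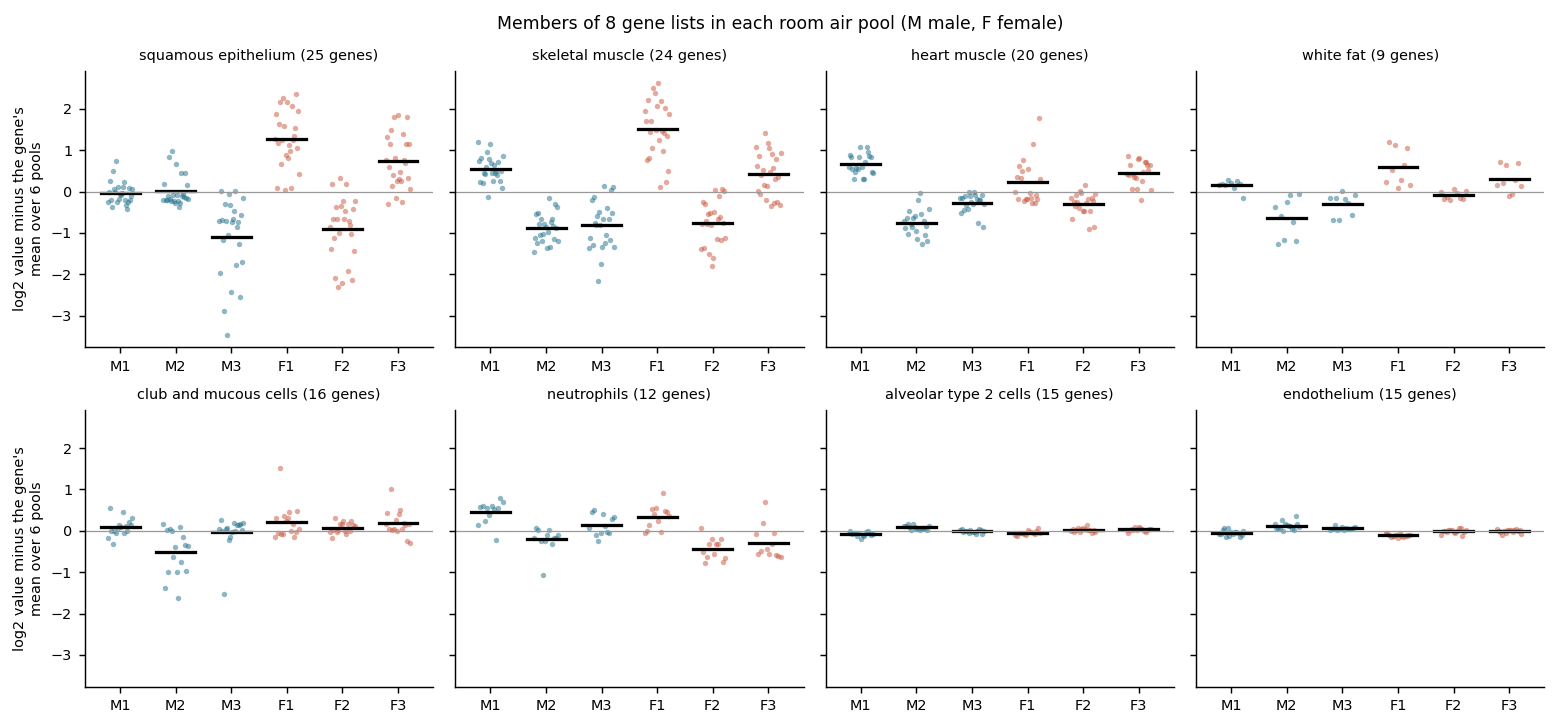
Each dot is a gene of 1 of 8 lists in 1 room air pool (x axis, M male and F female pools 1 to 3), as its log2 value minus the gene's own mean over the 6 pools (y axis), and black bars are list means. The skeletal muscle, heart and fat lists are all lowest in male pools 2 and 3 and female pool 2, but differ in order within the low and high pools. Squamous genes are low in male pool 3 and female pool 2. Club and mucous genes drop in male pool 2, and type 2 and endothelial genes stay near 0.

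The main contractile genes of heart muscle were bright in every pool. The list shared its low pools with skeletal muscle but was highest in male pool 1. The list mean was 9.82, 8.41 and 8.89 in male pools 1 to 3 and 9.39, 8.86 and 9.61 in female pools 1 to 3, a range of 1.41, or 2.66-fold. Male pool 1 was the highest in 13 of 20 genes, against 29.8% of all genes. Male pool 2 was the lowest in 19, against 24.1% of all genes. Of the 20, 2 were among the 500 brightest genes and 5 had a mean below 8.16. Actc1, cardiac actin, had a mean of 12.22 and read 12.81, 11.51, 12.07, 12.21, 12.07 and 12.63. Tnnt2, cardiac troponin T, read 12.62, 10.95, 11.70, 11.61, 11.57 and 12.31, and Tnni3, cardiac troponin I, 11.94, 10.01, 10.86, 10.99, 10.92 and 11.73. Even the lowest pool of each stood well above the 8.16 below which most distant organ genes lay. Myh6, the cardiac myosin heavy chain of the adult mouse, differed 4.08-fold, from 9.39 in male pool 2 to 11.42 in male pool 1. Trdn, triadin of the calcium release complex in both heart and skeletal muscle, was highest in the same pool as the skeletal genes, with 11.19 in female pool 1 and 8.22 in male pool 2. Pln, the regulator of the cardiac calcium pump, read 10.48, 8.44, 9.06, 9.18, 9.21 and 9.99.

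Markers of the cardiac chambers differed in level. The atrial list had a mean of 10.19, 8.53 and 9.14 in male pools 1 to 3 and of 9.33, 9.02 and 9.78 in female pools 1 to 3, a range of 1.65, or 3.14-fold. Nppa, the atrial natriuretic peptide, read 12.69, 9.41, 10.45, 11.34, 10.22 and 12.01, a 9.67-fold difference. Myl7, the atrial regulatory light chain, read 11.82, 9.85, 10.69, 10.81, 10.71 and 11.59, and Myl4, the atrial essential light chain, 12.71, 10.99, 11.82, 11.86, 11.65 and 12.42. Male pool 1 was the highest and male pool 2 the lowest for all 3. With the median over the 7 genes in place of their mean the range was 0.27, the middle gene being Gja5, a gap junction protein of atrium and of arterial endothelium, which stayed between 9.18 and 9.46. Of 5 ventricular genes, 3 had a mean below 8.16. Myl2, the ventricular regulatory light chain, lay between 6.54 and 7.25, Irx4, a ventricular transcription factor, between 6.70 and 7.35, and Nppb, the B-type natriuretic peptide, had a mean of 7.62. Myh7, a myosin of ventricle and slow skeletal fibres, lay higher, between 8.84 and 9.37, with its highest value in female pool 1. Myl3, the ventricular essential light chain, is also made in slow skeletal fibres, and it read 9.43, 7.78, 7.62, 10.43, 7.79 and 9.62, in the skeletal order of pools. How much of the atrial signal came from the sleeves around the pulmonary veins and how much from the heart was not tested.

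White fat genes differed between pools, and 2 of the 9 measured had a mean below 8.16. The list mean was 9.30, 8.51 and 8.84 in male pools 1 to 3 and 9.74, 9.06 and 9.45 in female pools 1 to 3, a range of 1.23, or 2.34-fold, and of 0.79 with each sex centred on its own mean. Adipoq, the fat hormone adiponectin, read 9.46, 8.01, 8.59, 10.47, 9.10 and 10.00, a 5.51-fold difference. Fabp4, a fatty acid carrier of fat cells and also of capillary endothelium, read 10.58, 9.12, 9.60, 11.42, 10.09 and 10.92. Retn, the fat hormone resistin, read 10.46, 9.09, 9.71, 11.32, 10.11 and 10.97. All 3 had the same order of pools, with female pool 1 the highest and male pool 2 the lowest. Car3, a carbonic anhydrase of fat and slow muscle, belongs to none of the lists, was chosen after its values were seen and read 12.56, 11.03, 11.70, 13.03, 12.07 and 12.82. Lep, leptin, was dim, between 6.70 and 7.14. Ucp1, the defining protein of brown fat, read 7.89, 6.71, 6.67, 7.36, 6.85 and 6.54, all below 8.16. The brown fat list ranged by 0.77, or 0.51 once the offset of dim genes described below was removed. The colour map of selected genes shows the pool patterns of the tissues side by side.

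**Figure D4:**
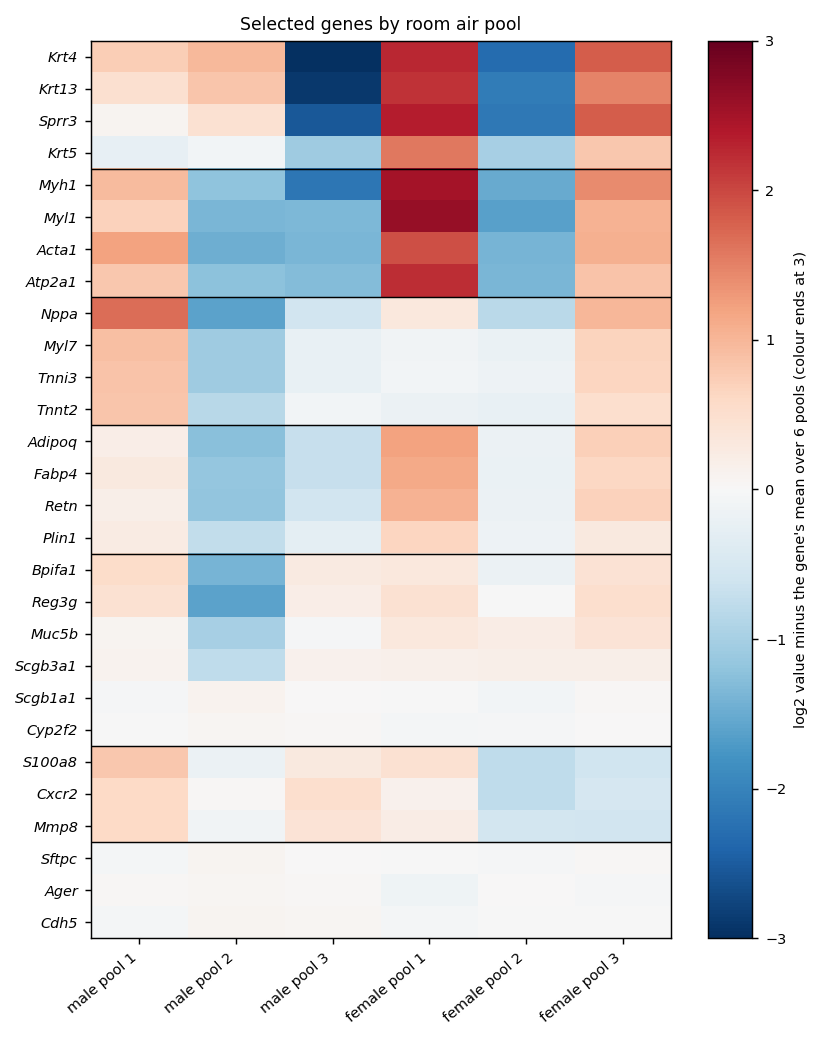
Rows are 28 genes, columns the 6 room air pools, and colour is the log2 value minus the gene's mean over the pools, ending at 3 in both directions, which Krt4 passes in male pool 3. From top to bottom the blocks are squamous, skeletal muscle, atrial and heart, fat, airway secretory, neutrophil and alveolar or endothelial genes. Several of the first 6 blocks differ in which pools are high and low. The skeletal muscle and fat lists share their highest pool, female pool 1, and their lowest, male pool 2.

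Other neighbouring tissues had list medians close to those of distant organs. The medians of the lists of thymus, cartilage, glands and thyroid were 7.12, 7.75, 7.17 and 7.58, and none of their 37 measured genes had an SD of at least 0.5. Cartilage had 9 of its 16 genes below 8.16, and its brightest was Chad, a cartilage matrix protein, with a mean of 10.57. Cxcl13, the chemokine that draws B cells into follicles, was the variable gene of the lymph node list, at 10.67 in female pool 1, 10.16 in female pool 3 and 9.81 or less in the other pools. Jchain, the joining chain of secreted antibodies, read 8.50, 7.74, 8.11, 8.95, 7.99 and 8.59, and was the only one of 5 plasma cell genes that was highest in female pool 1.

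Dim genes moved together by array. In the dimmest 3988 genes, with mean levels from 3.55 to 6.91, the median gene lay 0.14 above its own mean in male pool 1 and 0.14 below it in female pool 3 (median −0.14). In the brightest 3988 genes these medians were −0.05 and 0.03. Most lists of distant organs followed the offset: male pool 1 was the highest for brain, retina, testis, pancreas, kidney and gut, with ranges from 0.33 to 0.55. Once the median offset of genes of like level was removed, these ranges were from 0.04 to 0.29. The liver list was the exception: it was highest in female pool 2 before the removal and in female pool 3 after it, and its range was 0.47 before and 0.46 after. The ranges of squamous epithelium, skeletal muscle, heart muscle and white fat were 2.41, 2.36, 1.39 and 1.25 after the removal. A difference of about 0.3 or less in a dim list is therefore within what all dim genes of an array shared, as the plot of offsets by level shows.

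**Figure D5:**
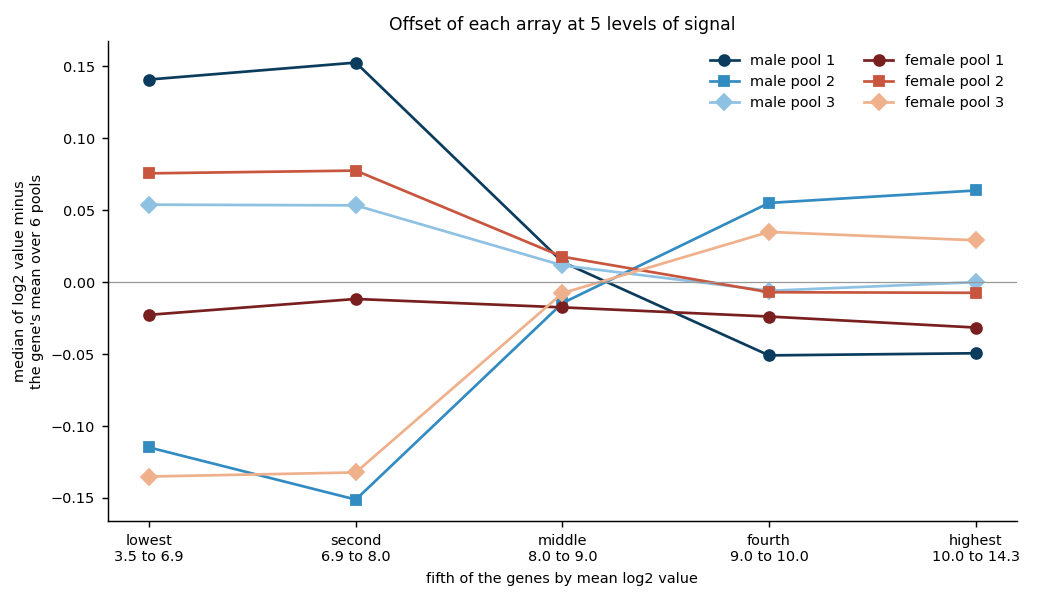
Lines are the 6 room air arrays; the x axis divides the genes into 5 bins by mean log2 level and the y axis is the median over the genes of a bin of the log2 value minus the gene's own mean over the 6 pools. In the 2 dimmest bins male pool 1 lies highest (0.14 and 0.15), and in the brightest bin all arrays lie between −0.05 and 0.06.

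Some single genes differed widely between pools. Alb, the plasma protein albumin, read 9.52, 10.09 and 9.48 in male pools 1 to 3 and 9.65, 11.30 and 11.27 in female pools 1 to 3, a 3.53-fold difference. The liver list was also highest in these pools, at 8.01 and 7.93 against 7.54 to 7.77 elsewhere. Of its other genes, Ahsg, fetuin, read 8.11 and 8.17 in female pools 2 and 3 and between 7.25 and 7.86 in the rest, and Ttr, transthyretin, 7.94 and 7.77 there and between 7.25 and 7.53 in the rest. Cyp1a1, the P450 enzyme induced through the aryl hydrocarbon receptor, read 8.42, 9.03, 8.75, 7.36, 10.06 and 8.21, a 6.54-fold difference. Further targets of that receptor, also chosen after their values were seen, differed less: Cyp1b1 lay between 8.21 and 8.41, Ahrr between 6.07 and 6.50 and Tiparp between 9.91 and 10.30. Cyp1a2, a related P450, was dim at 5.84 to 6.25. Cyp1a2 and Ahrr were highest in female pool 2 as Cyp1a1 was, where 14.2% of all genes were highest. Ahrr read nearly as high in female pool 1 (6.45), where Cyp1a1 was lowest. Cyp1b1 was highest in male pool 1 and Tiparp in female pool 3. Saa3, an acute phase protein, read 8.98 in female pool 1 and between 7.32 and 7.61 in the others. Cxcl9, a chemokine induced by interferon gamma, was also highest in female pool 1, at 9.17 against 7.44 to 7.88. Zfp931, a zinc finger gene, read 8.84 in male pool 2 and 8.89 in female pool 3 and between 6.83 and 7.97 in the others.

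Among the lists of cell state, those of the glucocorticoid response and the acute phase varied most. The interferon response ranged by 0.27 and the cell cycle by 0.23. Immediate early genes ranged by 0.26, or 0.12 without male pool 3, the clock by 0.21, or 0.08 without male pool 1, and heat shock by 0.16, or 0.05 without female pool 3. The acute phase list ranged by 0.40, or 0.26 without female pool 3. The glucocorticoid response ranged by 0.42 and by 0.22 with each sex centred on its own mean. Pdk4, a kinase that spares glucose, was its widest gene at 9.89, 9.10, 9.31, 10.72, 9.69 and 10.27, with the same highest and lowest pools as the fat genes. Mt2, a metal-binding protein, read 11.73, 11.40, 11.34, 12.25, 11.50 and 11.81. Per1, a clock gene also induced by glucocorticoids, ran from 9.74 in male pool 1 to 10.40 in female pool 3. Among genes with a mean of at least 8, the smallest SDs, about 0.01, belonged to genes such as Cxadr, an adhesion receptor of epithelium, which lay between 10.05 and 10.07, Smarcd2 of a chromatin remodelling complex and Eif4g3, a translation factor.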

How the data were processed

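Lung total RNA of 12 pools was hybridised to Affymetrix Mouse Gene ST arrays, and the 6 room air arrays were analysed here. The authors deposited 1 log2 value for each transcript cluster. Per the submitters' processing notes the values were made by Robust Multichip Average (RMA), which corrects background, quantile normalizes across arrays and summarises the probes of a cluster. The sources used here give neither its version nor the dates on which arrays were scanned, so batches were not examined. Quantile normalization gives the probe values of all arrays 1 distribution, so it hides any change of total signal, and it may have included arrays of exposed mice. The cluster values summarised from the probes still differed slightly in distribution between arrays. The deposited values were used with no further normalization or filter, and every value column was assigned to a sample (0 columns were left out).

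Of 35556 clusters, 21789 had 1 symbol in the platform annotation, 1621 had several and 12146 were not listed. For each of 19938 symbols the cluster with the highest mean was kept. Mean and SD over the 6 arrays were computed, and 52 gene lists were described by the mean of their members in each array, of which 511 genes were matched and 45 were not. No groups were compared and no p-values were computed; single arrays far from the others were sought with Dixon's criterion. The members and the lists were chosen with earlier results of these data known. Genes were named by rule: the 30 with the highest mean, the 40 with the largest SD (with their order by SD within sex), the 10 with the smallest SD among genes with a mean of at least 8, per list up to 5 members with the highest mean and up to 5 with the largest SD, and the genes that check the sex labels. List members outside it (among them Krt5, Trp63, Krt6a, Psca, Crnn, Tnni1, Tnnt1, Myod1, Lep, Foxj1 and Ngp) and genes of no list below the first 40 by SD were chosen after their values were seen. Promoter sequences came from RefSeq (GRCm38.p6).

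The alternatives were quantile normalization again, median centring, the mean over clusters, a minimum mean of 6, centring within each sex, the median over list members, leaving out each array and, chosen after seeing the data, removal of the median offset in 20 bins of level. The calculation was checked on simulated data. Python 3.11.15, numpy 2.4.6, pandas 2.3.3 and matplotlib 3.10.9 were used.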

Additional observations from a re-analysis of the deposited data

Results flagged for a closer look

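In 51 lists and 170 genes the highest or lowest of the 6 arrays was set against the spread of the others, as the gap to the nearest array over the whole range. The genes were the 40 with the largest SD, the list members with an SD of at least 0.5 and every gene the report gives values for, except the sex check genes. Those beyond Dixon's 95% critical value for 6 arrays are given. Chance alone flags about 1 in 20, many genes were chosen with their values known, and the 6 arrays span both sexes. In all, 3 lists and 15 genes were beyond it. Male pool 2 lay far below the others in the mean of the club and mucous cell list (0.661) and in the airway genes Scgb3a1 (0.924), Reg3g (0.755), Bpifb1 (0.712), Muc5b (0.694), Tff2 (0.684) and Bpifa1 (0.631). It lay above the others for Cxcl15 (0.646), a chemokine of lung epithelium. Female pool 1 lay far above the others for Saa3 (0.826), Ngp (0.769), Cxcl9 (0.743) and C1qb (0.659) of immune and acute phase genes and for Myh2 (0.739), Myl2 (0.7) and Myh7 (0.637) of muscle. It lay below the others for Aqp5 (0.869) of type 1 cells. Male pool 1 was low in the clock list (0.633) and female pool 3 high in the heat shock list (0.7), where the whole ranges were 0.21 and 0.16 on the log2 scale. The ratio does not measure the size of a difference, so genes of narrow range were flagged too. Among them was Myl2, which lay below 8.16 in every pool. The causes were not tested.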

How the results depend on the processing

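No paired analysis was possible because no groups were compared. Of 779 values for 60 results under the alternatives, 57 moved by more than their limit. The 228 genes with an SD of at least 0.5 became 233 after quantile normalization of the 6 arrays, 223 with each sex centred on its own mean, and 196 without female pool 1. Taking the median over the members in place of the mean turned the range of the club and mucous cell list from 0.73 to 1.02 and that of the atrial list from 1.65 to 0.27, where the middle member was Gja5. Leaving out 1 array gave ranges of 1.82 to 2.37 for squamous epithelium, 1.44 to 2.39 for skeletal muscle, 0.96 to 1.41 for heart muscle, 0.90 to 1.23 for white fat and 0.25 to 0.73 for club and mucous cells. Members among the 200 genes with the largest SD then numbered 1 to 4 for club and mucous cells (3 with all arrays, 1 without male pool 2), 1 to 6 for neutrophils (3 with all arrays, 1 without male pool 1 or female pool 2, 6 without female pool 1) and 2 to 6 for atrial muscle (5 with all arrays, 2 without male pool 1). Removal of the offset in bins of level, chosen after seeing the data, moved 15 of 51 list ranges. Dim lists and genes are limited by signal near background.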
